A study of Mus musculus with 2 samples.

Results

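The genes examined here are 10 that encode catalytic subunits of the protein phosphatases PP1 (Ppp1ca, Ppp1cb, Ppp1cc) and PP2A (Ppp2ca, Ppp2cb) and the catalytic (Ppp3ca, Ppp3cb, Ppp3cc) and regulatory (Ppp3r1, Ppp3r2) subunits of calcineurin. Their values came from the probe sets that carry 1 gene symbol in the platform annotation, where that symbol is one of these. That gave 20 probe sets for 9 genes, out of 20380 probe sets for 12393 genes on the array. Ppp3r2, the testis form of the calcineurin regulatory subunit, had 0 such probe sets and has no value here. One further probe set lists both Ppp3r1 and Wdr92 and was left out, since it names no single gene.

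Messenger RNA came from testes of mice 17 days old, of mixed 129SV and C57BL background, in which the first wave of germ cells has reached meiosis. The 2 groups were wild type mice and UBR2-/- mice, in which the gene for UBR2 is disrupted; UBR2 marks proteins with destabilizing N-termini for degradation by ubiquitin. Each was measured on 1 Affymetrix mouse genome 430A 2.0 array (n = 1), and the labels name 2 testes from different littermates for each genotype. How the UBR2 allele was made, and whether the RNA of the 2 testes was pooled, were not given in the sources used here. With 1 array per genotype no test is possible, and every difference below describes these arrays.

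Serine/threonine phosphatases of this family remove phosphate from proteins and owe most of their specificity to partner subunits. The catalytic isoforms of PP1 are encoded by separate genes. Ppp1cc yields, by alternative splicing, a widely used form and a form enriched in testis and sperm, and male mice without the gene are infertile. PP2A is a complex of a catalytic, a scaffold and a regulatory subunit. Calcineurin is switched on by calcium and calmodulin and is the target of the immunosuppressants cyclosporin and FK506. Its catalytic subunit Ppp3cc and its regulatory subunit Ppp3r2 form the version found in sperm, where it acts on the bending of the tail. Ppp3ca, Ppp3cb and Ppp3r1 are the forms of other tissues, the brain and T cells among them.

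A probe set's signal is a linear intensity on the authors' scale, and the median over the array was 48.7 for wild type and 48.75 for UBR2-/-. Signals of different probe sets are not compared with each other, because probes differ in how well they bind, so the levels of these genes cannot be put in order. Signals under the 40th percentile of an array (24.4 for wild type, 24.7 for UBR2-/-) were raised to this floor. Each gene is represented by its brightest probe set, which left 8091 genes bright enough to compare. Ratios are UBR2-/- over wild type, on the log2 scale. Where a gene has several probe sets above the floor, the disagreement of its brightest pair gave an SD for the log2 ratio of a single probe set. It was estimated from the median absolute difference: 0.26 in dim, 0.20 in intermediate and 0.14 in bright probe sets, grouped by signal. This SD stands in for an error below, but it leaves out differences between arrays and between animals. Being median-based, it also gives little weight to rare wide disagreements. Scaling the arrays on the spike-in controls instead of the deposited scaling shifts the median of all genes by -0.35, which turns log2 ratios between 0 and 0.35 to below 0. The targeted gene Ubr2 read 57.2 in wild type and 14.3, under the floor, in UBR2-/-, by 1 probe set whose position relative to the disrupted part was not given in the sources used here.

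Of the 9 members compared, 1 was at least 2-fold lower in UBR2-/- testes, 8 lay within 2-fold and 0 were higher by that much. Over all 8091 genes, 3.52% were at least 2-fold lower and 0.346% at least 2-fold higher. The members' median log2 ratio was -0.15, against 0.07 for all compared genes, with 4 members above that value and 5 below it. The member beyond 2-fold was Ppp3cc, by its brightest probe set only, and the next lowest was Ppp3ca. Averaging the probe sets of each gene left 0 members beyond 2-fold. Leaving out probe sets whose names mark shared or alternative transcripts also left 0, among 7 members, and turned the median to 0.09. Of the 20 member probe sets, 18 were above the floor on both arrays, and 17 of these 18 lay within 2-fold.

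**Figure D1:**
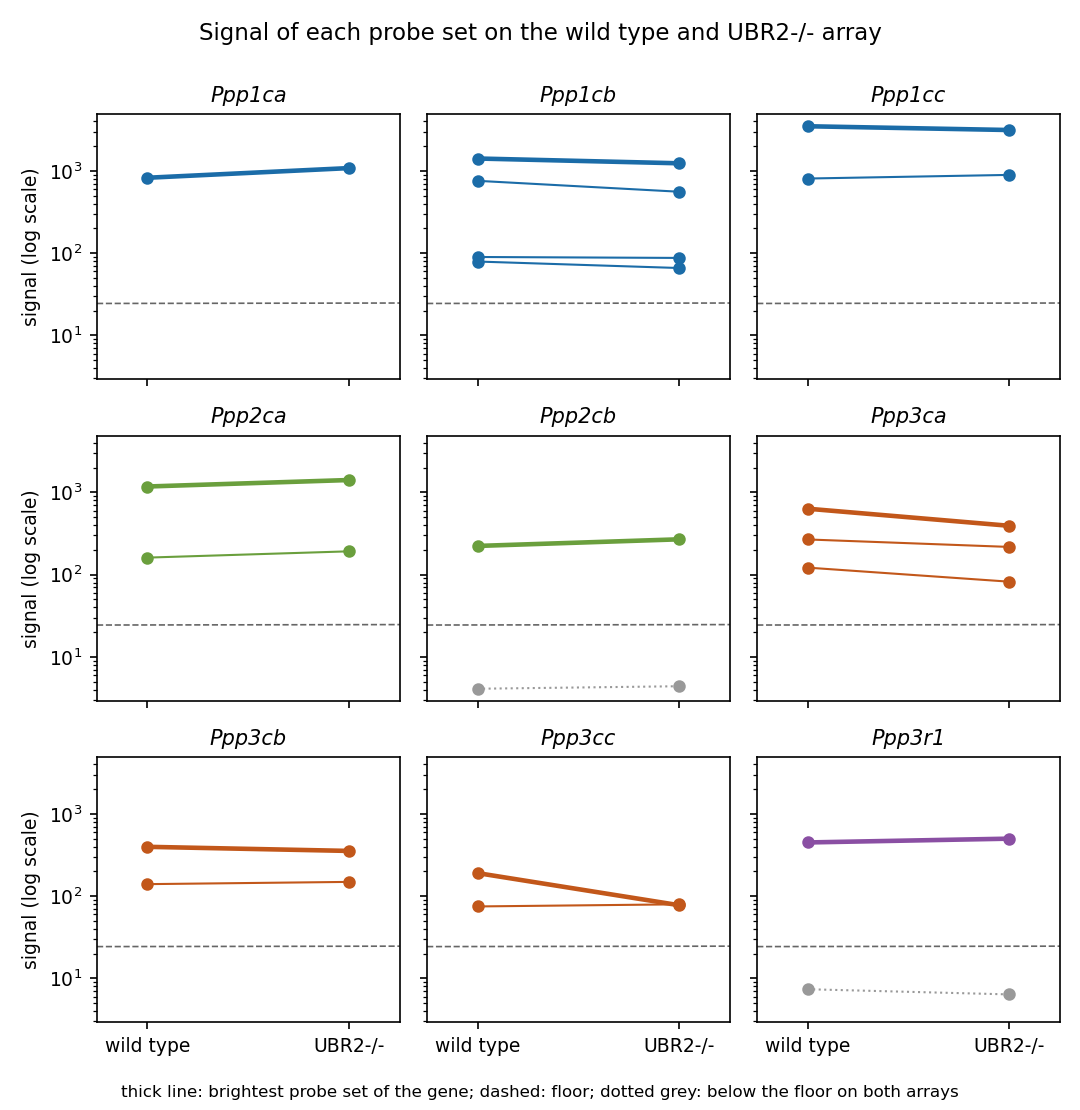
Signal of each probe set (log scale, authors' intensity units) on the wild type and the UBR2-/- array, 1 panel per gene, with 1 line per probe set and n = 1 array per genotype. The lines of most genes are nearly flat. Those of Ppp3ca all run downward, as do those of Ppp1cb, some only slightly. Of the Ppp3cc lines, 1 runs down from 191 to 77.7 while the other goes from 75.1 to 79.7.

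Among the calcineurin catalytic subunits, Ppp3cc gave the lowest ratio and also the widest disagreement. Its brightest probe set, the one named with _a_at, gave 191 for wild type and 77.7 for UBR2-/-, which is 2.46-fold lower (log2 ratio -1.30, probe set SD 0.20). In the order of all 8091 genes this ratio was the 184th from the bottom, with 2.27% of genes at or below it. The other probe set had 75.1 and 79.7 (log2 ratio 0.09, probe set SD 0.26). So only the brightest probe set showed a lower value on the UBR2-/- array, and the other lay within its SD of no difference. The gap between their log2 ratios was 1.38. Of 2893 genes with several probe sets above the floor, 0.380% had a range at least that wide, and the median range was 0.23. Which transcripts of Ppp3cc each probe set reads was not given in the sources used here. A name ending in _a_at marks, in the array maker's naming, a set that binds alternative transcripts of 1 gene.

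Ppp3ca, a catalytic subunit best known from brain, was lower on the UBR2-/- array in all 3 of its probe sets. The brightest had 633.3 on wild type and 392.5 on UBR2-/-, or 1.61-fold lower (log2 ratio -0.69, probe set SD 0.14). In the dimmest, signals of 121.7 and 82.1 gave a log2 ratio of -0.57. In the other, which can also bind transcripts of further genes, they were 267.8 and 217.2, with a log2 ratio of -0.30. Each of these ratios lay under the lower quartile of all compared genes, which was -0.17. By its brightest probe set, 5.99% of all genes were at or below Ppp3ca. With spike-in scaling its log2 ratio was -1.04 and passed 2-fold.

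Ppp3cb, the remaining catalytic subunit, stayed near all genes. Its brightest probe set had 398.5 on wild type and 355.2 on UBR2-/- (log2 ratio -0.17), and its other probe set had 140.2 and 149.3 (0.09). The 2 probe sets fell on opposite sides of 0, by no more than about their own SDs of 0.14 and 0.20. Ppp3r1, the regulatory subunit that partners the somatic forms, had 450.3 and 500.8 (log2 ratio 0.15). Spike-in scaling turned this to -0.19. Its other probe set was below the floor on both arrays, at 7.4 and 6.4. The mixed probe set that lists Ppp3r1 with Wdr92 had 25.4 and 27.4, just above the floors.

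Set against its relatives on the same arrays, the log2 ratio of Ppp3cc was below that of Ppp3ca (difference -0.61, SD 0.24 from the probe sets) and further below that of Ppp3cb (difference -1.13, SD 0.24). Against the mean of both relatives the difference was -0.87 (SD 0.22). A difference of this kind does not move with a uniform rescaling of an array. It does move with the probe set: by its other probe set, Ppp3cc lay above the mean of its relatives by 0.51. Ppp3ca in turn lay below Ppp3cb (difference -0.52, SD 0.20). In the calcineurin catalytic family, therefore, the testis form had the lowest ratio by its brightest probe set, with Ppp3ca next and Ppp3cb nearest to all genes.

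Markers of late spermatocytes, the germ cells in which many sperm genes are first used, were far lower on the same array. Of 15 such genes 14 were beyond 2-fold, the median log2 ratio was -3.11, from -4.57 for Adam5 of the sperm surface upward, and the summed signal was 11586.2 for wild type and 1776 for UBR2-/-. Early meiosis markers (9 compared) had a median of -0.08 and sums of 9173.8 and 8741.2, with Sycp3 of the chromosome axis at 0.02 and Spo11, which makes meiotic DNA breaks, at -1.27. The 10 Sertoli cell markers had a median of 0.37 and sums of 7923.8 and 10417, with Clu at 0.45 and Amh at -1.23, and the 5 peritubular myoid markers had 0.49 and sums of 1998.9 and 2840.2. Such sums lean on the brightest probe sets. Clu gave 5186.1 and 7075.9 of the Sertoli sums, and Ldhc 3709.3 and 430.5 of the late spermatocyte sums. Spermatogonia, Leydig and macrophage markers had medians of -0.02, 0.21 and -0.06, the 6 spermatogonia markers running from -1.07 for Id4 to 0.43. Of 6 spermatid markers 1 was bright enough to compare: Prm1, dim at 35.3 and 94 (1.41, with 3 probe sets from 0.35 to 1.55). Of the red blood cell markers 0 of 2 were bright enough. No marker on the array was at 0. In whole testis, fewer cells of a type and less RNA per cell cannot be told apart, and the part of late spermatocyte RNA in the ratios of Ppp3cc and Ppp3ca was not tested.

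**Figure D2:**
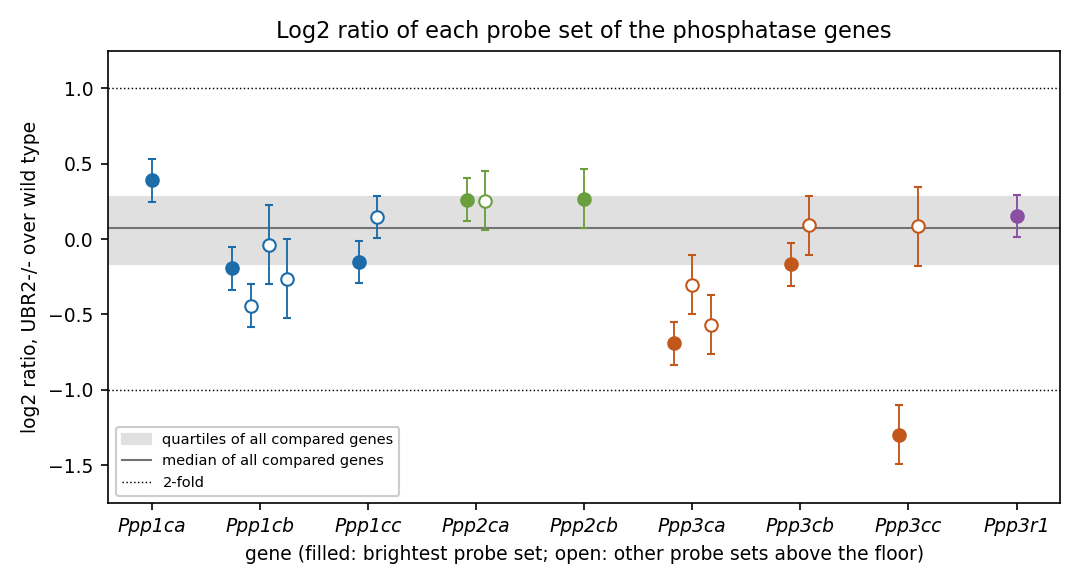
Log2 ratio (UBR2-/- over wild type) of each member probe set above the floor, with bars of ±1 SD taken from the disagreement of probe sets of the same gene. The grey band runs between the quartiles of all compared genes, from -0.17 to 0.28; Ppp3cc has 1 point below the 2-fold line at -1.30 and 1 inside the band at 0.09.

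The PP1 catalytic subunits kept within 2-fold in all 7 probe sets, as did 7778 of all 8091 compared genes by their brightest probe set. Ppp1cc, whose testis-enriched splice form is the main PP1 of sperm, had 3481.6 on wild type and 3132.8 on UBR2-/- in the brightest probe set (log2 ratio -0.15). Its other probe set had 805.7 and 891.8 (log2 ratio 0.15). Both differ from 0 by about 1 SD of a probe set, 0.14, and in opposite directions. Quantile normalization moved the log2 ratio of Ppp1cc to -0.34 and loess normalization to -0.33. Neither probe set could be assigned to the common or the testis-enriched splice form here.

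Ppp1ca, a broadly used PP1 subunit, was read by 1 probe set, with 823.3 on wild type and 1079.3 on UBR2-/- (1.31-fold, log2 ratio 0.39). It was the highest of the members, with 13.7% of all genes at or above it. Ppp1cb, the form that serves myosin phosphatase, was lower on the UBR2-/- array in all 4 probe sets. The brightest had 1411.3 and 1234.2 (log2 ratio -0.19), and the others had -0.44, -0.26 and -0.04. The ratio of -0.44 came from signals of 755.6 and 556.7, with a probe set SD of 0.14. The log2 ratio of Ppp1cc was below that of Ppp1ca (difference -0.54, SD 0.20) and close to that of Ppp1cb (difference 0.04, SD 0.20). Against the mean of both relatives the difference was -0.25 (SD 0.17). So the testis-linked gene of this family did not stand apart from both relatives by its brightest probe set: it lay beside Ppp1cb, while Ppp1ca lay above both. By its other probe set, with a log2 ratio of 0.15, Ppp1cc lay between Ppp1cb (-0.19) and Ppp1ca (0.39).

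Both PP2A catalytic genes, whose proteins are nearly identical, had slightly higher signals on the UBR2-/- array. Ppp2ca had 1178.9 and 1413.4 (log2 ratio 0.26) in its brightest probe set and 161.1 and 192.1 (0.25) in the other, so its probe sets differed by little. Ppp2cb had 223.3 and 268.8 (log2 ratio 0.27), and its other probe set was below both floors at 4.1 and 4.4. The ratios of Ppp2ca and Ppp2cb differed by -0.0058 (SD 0.24). With spike-in scaling both turned to just below 0, at -0.09 for Ppp2ca and -0.08 for Ppp2cb, while both stayed above the median of all genes.

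Relative to the median of all compared genes, and over 10 ways of processing (7 scalings, floors or pseudocounts besides the reported one, and 2 treatments of probe sets), 8 of the 9 members stayed on 1 side of it in each setting that measured them. This count says little about stability, since several settings could hardly move these values. Array median and spike-in scaling shift the members and that median almost alike. Moving the floor changed the log2 ratio of no member but Ppp3cc, to -1.09 at the 60th percentile. Against that median, Ppp3ca ranged from -0.77 to -0.58. Ppp1ca lay above it by 0.31 to 0.33, and Ppp2ca by 0.14 to 0.20. Ppp1cb stayed below it, from -0.32 to -0.26, and so did Ppp3cb, from -0.24 to -0.10. Ppp1cc was below it in the 9 settings that measured it, from -0.41 to -0.06. By the other probe set alone, which no setting used, Ppp1cc lay above that median by 0.07 and Ppp3cb by 0.02. Ppp3cc ranged from -1.38 to 0.01, the upper end coming from the setting without shared probe sets. Averaging its 2 probe sets gave a log2 ratio of -0.61, which is within 2-fold.

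**Figure D3:**
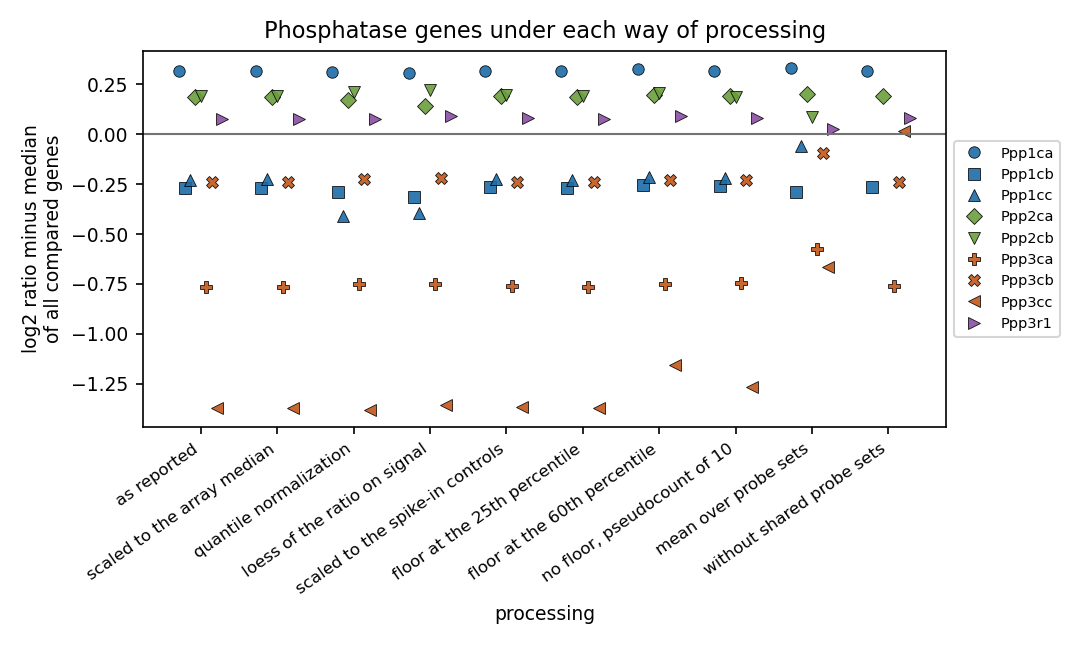
Log2 ratio of each member minus the median of all compared genes (vertical axis) under the reported and 9 alternative ways of processing (horizontal axis). Ppp3ca keeps its place under every setting shown except the mean over probe sets, where it moves to -0.58, and Ppp3cc moves from -1.37 to -0.66 with the mean and to 0.01 without shared probe sets.

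Partner genes were then read as lists of regulatory subunits, inhibitors and pathway genes. Over all 60 compared genes of 4 lists, 2 were at least 2-fold lower and 0 at least 2-fold higher, beside 3.52% and 0.346% of all genes. Their median log2 ratio was 0.07, the same as for all genes when rounded, with 29 above and 31 below it. The 2 genes beyond 2-fold were Ppp1r42 and Ppp2r5c.

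Among PP1 regulatory subunits and inhibitors, 13 of 20 genes on the array were bright enough, 1 was at least 2-fold lower, 12 lay between and the median was 0.02. Ppp1r42, a leucine-rich repeat protein found in testis, had signals of 60.5 and 6.9 in its brightest probe set, or at least 2.45-fold lower, since the UBR2-/- signal was below the floor. Its other probe set had 47.8 and 4.6, at least 1.94-fold lower. Both therefore had a wild type signal above the floor and a UBR2-/- signal below it. Ppp1r11, an inhibitor of PP1, had 291 and 192.9 (log2 ratio -0.59, its other probe set 0.25). Ppp1r2, another inhibitor, had 593.6 and 506.6 (-0.23, with the 3 probe sets reaching up to 0.77). Ppp1r8, a nuclear targeting subunit, had 567.3 and 422.9 (-0.42, its other probe set -0.02). Ppp1r15b, which directs PP1 to the translation factor eIF2, had 347.5 and 480.8 (0.47) and was the highest of the list.

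In the PP2A list, 23 of 24 genes were compared, 1 was at least 2-fold lower, 22 lay between and the median was 0.04. Ppp2r5c, a regulatory subunit of the B56 family, had 482.4 on wild type and 233.3 on UBR2-/- in its brightest probe set, 2.07-fold lower (log2 ratio -1.05). Its 6 probe sets disagreed, from -1.18 to 0.39, with 4 below 0 and 2 of these beyond 2-fold. Strn3, a striatin subunit, had 1009.8 and 1025.2 (0.02). The scaffold gene Ppp2r1a had 939.7 and 1108.1 (0.24, with 5 probe sets from 0.18 to 1.09). Igbp1, which binds free catalytic subunits, had 171.8 and 247.5 (0.53), and Cip2a, an inhibitor of PP2A, had 215.6 and 161.1 (-0.42).

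Of the calcineurin pathway list, 8 of 11 genes on the array were compared, 0 were beyond 2-fold and the median was 0.11. Fkbp1a, the immunophilin that carries FK506 to calcineurin, had 1873.7 and 1665.4 (log2 ratio -0.17, with 5 probe sets up to 0.04). Nfatc4, a transcription factor that calcineurin dephosphorylates, was dim at 24.8 and 49.2 (0.99), just above the floor on wild type, and its relative Nfatc3 had 268.7 and 304.3 (0.18). Of the calcineurin regulators, Rcan2 had 28.3 and 41.5 (0.55) and Rcan1 had 201.6 and 225.3 (0.16). Crtc2, a coactivator that calcineurin dephosphorylates, had 62.7 and 44.8 (-0.48). Spata33 had no probe set with a single symbol and was not analysed here.

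Other serine/threonine phosphatases had the narrowest range of the 4 lists. All 16 compared genes of 17 on the array lay within 2-fold, as did 7778 of all 8091 compared genes. The 16 ran from -0.21 to 0.46, with a median of 0.07, 8 on either side of the median over all genes. Ppm1g, a metal-dependent phosphatase, had 731.6 and 633.8 (-0.21). The small phosphatases of RNA polymerase Ctdsp2 and Ctdsp1 had 564.3 and 777.7 (0.46) and 114.7 and 155.9 (0.44). Ppm1a, of the same kind as Ppm1g, had 355.4 and 433.9 (0.29). By brightest probe sets, Ppp3cc and Ppp3ca both lay below the whole range of this list, and Ppp3cc by its other probe set lay inside it. Other probe sets of Ilkap and Ppp5c in this list reached -0.57 and -0.54, lower than the -0.30 of 1 Ppp3ca probe set. In the PP1 and PP2A lists, Ppp1r42 (at most -1.29) and Ppp2r5c (-1.05) were lower than Ppp3ca.

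**Figure D4:**
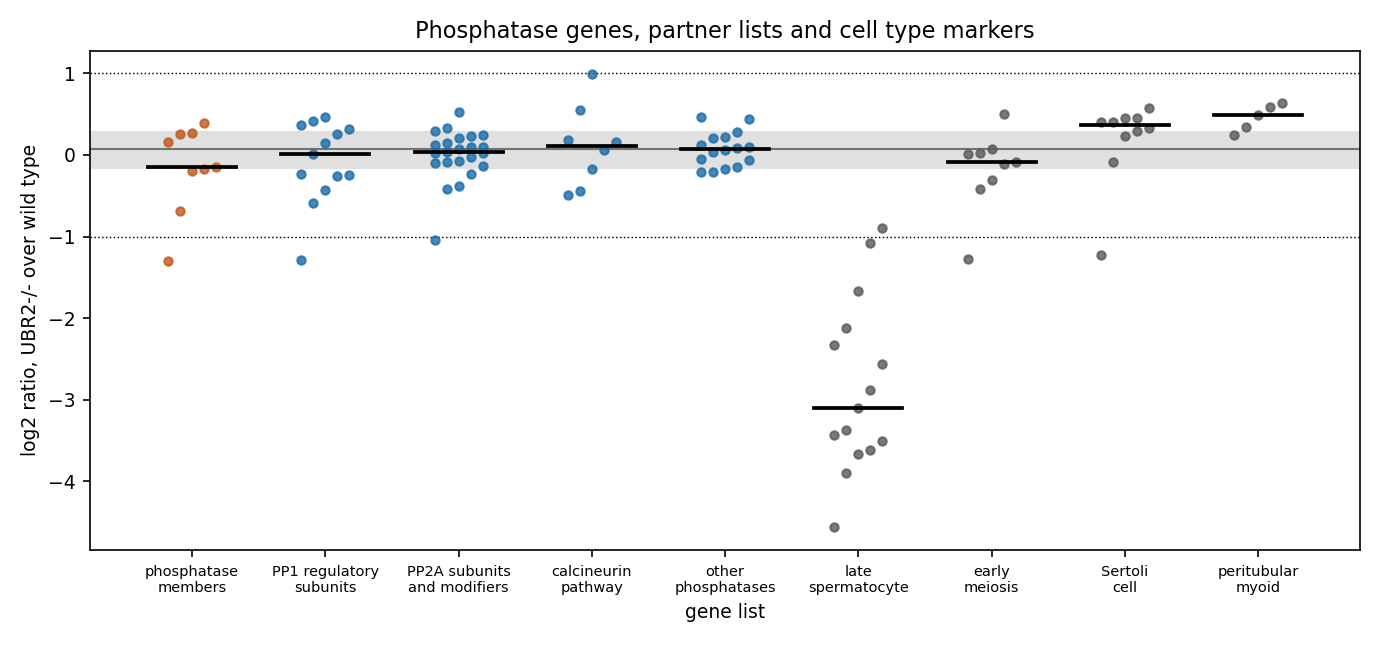
Log2 ratio (UBR2-/- over wild type) of each compared gene of the phosphatase members (orange), 4 phosphatase partner lists (blue) and 4 cell type marker lists (dark grey), with a black bar at each list's median; genes at the floor on 1 array are drawn at their bound. The grey band marks the quartiles of all compared genes; the members and partner lists scatter around it while late spermatocyte markers lie far below, with a median of -3.11.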

How the data were processed

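The authors deposited 1 linear intensity per probe set and array. MAS5 is named in the submitters' processing notes; neither its version and settings nor detection calls were given in the sources used here. Both arrays had a 2% trimmed mean of 150.04, and this scaling was kept. Of 22626 non-control probe sets, 20380 had 1 gene symbol, 691 several and 1555 none, in a platform annotation that can be old; 20351 matched the GRCm38.p6 gene table by Entrez identifier, used for names only. No genome build is named for the arrays, so no coordinates are given.

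Floor, brightest probe set and 2-fold threshold were as stated above. A gene was compared if the mean of its brightest probe set reached the mean floor. Members and lists were chosen with earlier results of these data known. Genes named from partner lists were those beyond 2-fold, the 3 farthest from 0 and the 2 brightest on wild type. Rcan1 was added after its value was seen. Genes with signals near those of a member, also in the rule, are left out, since signals of different probe sets are not comparable. The rule also took the brightest and the farthest gene of each marker list. To keep the markers short, only part of these are named. The calculation was checked on simulated data, in which all probe sets of a gene were changed together and only in genes bright on wild type. That check says nothing about genes whose probe sets disagree, such as Ppp3cc, or about dim genes. Alternatives were array median, quantile, loess (span 0.3) and spike-in scaling (45 probe sets), 10 added to each signal in place of a floor, a floor at the 25th or 60th percentile, averaging a gene's probe sets, using no probe sets named with _s_at, _x_at or _a_at, and thresholds of 1.5-fold and 3-fold. Python 3.11.15, numpy 2.4.6 and pandas 2.3.3 were used.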

Additional observations from a re-analysis of the deposited data

How the results depend on the processing

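With no replicates, a log2 value was taken as moved when it changed by more than the probe set SD. Leaving out probe sets of shared or alternative transcripts turned Ppp3cc to 0.086, its difference from Ppp3ca and Ppp3cb to 0.51, the members' median to 0.086 (0.014 above all genes) and the count of members at least 2-fold lower to 0; Ppp1cc and Ppp2cb then had no value. The mean over probe sets gave 0 such members, 1 partner gene, a members' median of -0.0029 (-0.061 against all genes), and differences of -0.33 for Ppp3cc and -0.082 for Ppp1cc from their relatives. Spike-in scaling gave 2 members 2-fold lower, a median of -0.50, and 524 genes lower and 7 higher among all genes. Quantile normalization moved the difference of Ppp1cc to -0.42. A floor at the 60th percentile moved that of Ppp3cc to -0.67 and left 1 partner gene 2-fold lower. At 1.5-fold, 2 members were lower and 0 higher, and 3 partner genes were lower and 1 higher. Among all 8091 genes, 624 were lower and 344 higher by that much. At 3-fold, 0 members and 0 partner genes were lower or higher, beside 121 lower and 3 higher among all genes. Beyond the construction of each alternative, the cause was not tested. Of the members' 79 single log2 ratios under these alternatives, 63 moved by no more than the probe set SD, 15 moved further and 1 changed sign after passing 2-fold. No paired analysis was possible because each genotype had 1 array.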
